A study of Mus musculus with 16 samples.

Results

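Transcripts of 10 immune checkpoint genes, *Pdcd1*, *Cd274*, *Pdcd1lg2*, *Lag3*, *Havcr2*, *Tigit*, *Tox*, *Ido1*, *Vsir* and *Cd276*, were followed in peritoneal tumors of the vehicle and IL-33 treatment groups. They were listed by name, and all 10 were found among the 22298 genes counted. The tumors grew in wild-type 615-line mice, 6 weeks old, from 500000 MFC cells, a murine gastric cancer line, injected into the peritoneal cavity. The vehicle group received PBS and the IL-33 treatment group received IL-33 at 20 μg/kg, both into the peritoneal cavity every 2 days, and 8 tumors of each group were sequenced. Each library is 1 bulk tumor of a mixture of cancer and host cells from a single cell line and mouse strain, so a change in the number of cells of a type and a change in transcript per cell cannot be told apart. The labels do not say that each tumor came from its own mouse, and p-values measure the spread between these tumors.

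Immune checkpoints are pairs of ligands and receptors that restrain T cells after they have been activated. *Pdcd1* encodes PD-1, the inhibitory receptor of activated T cells, and *Cd274* (PD-L1) and *Pdcd1lg2* (PD-L2) encode its ligands, of which PD-L1 is known to be induced by interferon-gamma in tumor and myeloid cells. *Lag3*, *Havcr2* (TIM-3) and *Tigit* encode further inhibitory receptors found on exhausted T cells, *Havcr2* also on myeloid cells. *Tox* encodes a transcription factor that maintains the exhausted state. *Ido1* encodes an interferon-induced enzyme that breaks down tryptophan, *Vsir* encodes VISTA, a checkpoint protein of myeloid cells and resting T cells, and *Cd276* encodes B7-H3, a member of the B7 family expressed by many tumor cells.

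The ligand genes *Cd274* (chr19:29367455-29388095, GRCm38, plus strand) and *Pdcd1lg2* (chr19:29410919-29471161, plus strand) are neighbors. Their promoters, from 250 bases before to 50 bases after the transcription start, are shown with that of *Cd276* because both ligands rose along the T cell score described further on, while *Cd276* was the member with the least spread. Sequences are from RefSeq (GRCm38.p6), which gave promoters for 7 of the 10 members, and capitals mark the GC box GGGCGG on either strand. The windows are chr19:29367188-29367487 for *Cd274*, chr19:29410669-29410968 for *Pdcd1lg2* and chr9:58554984-58555283 on the minus strand for *Cd276*, each read 5′ to 3′ along its gene.
Cd274: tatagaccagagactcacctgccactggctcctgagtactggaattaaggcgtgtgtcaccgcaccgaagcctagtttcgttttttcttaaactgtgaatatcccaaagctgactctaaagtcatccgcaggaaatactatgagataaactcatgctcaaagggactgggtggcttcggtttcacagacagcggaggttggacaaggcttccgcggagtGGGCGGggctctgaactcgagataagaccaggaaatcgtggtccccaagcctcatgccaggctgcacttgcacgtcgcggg
Pdcd1lg2: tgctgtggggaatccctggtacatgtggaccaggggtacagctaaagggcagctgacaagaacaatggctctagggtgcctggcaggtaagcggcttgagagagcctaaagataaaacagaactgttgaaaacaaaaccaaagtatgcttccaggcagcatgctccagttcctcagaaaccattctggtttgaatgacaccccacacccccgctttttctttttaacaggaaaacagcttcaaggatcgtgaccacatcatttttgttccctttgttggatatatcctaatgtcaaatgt
Cd276: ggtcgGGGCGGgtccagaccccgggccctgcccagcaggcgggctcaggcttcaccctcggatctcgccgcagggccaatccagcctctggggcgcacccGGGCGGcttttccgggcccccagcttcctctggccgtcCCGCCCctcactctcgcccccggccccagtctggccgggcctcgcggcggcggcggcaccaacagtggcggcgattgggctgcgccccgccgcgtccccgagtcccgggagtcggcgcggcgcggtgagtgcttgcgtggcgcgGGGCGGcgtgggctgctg

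The GC box was found 1 time in the *Cd274* window, 0 times in that of *Pdcd1lg2* and 4 times in that of *Cd276*, and 35.9% of 27025 promoters of this length held it. The window of *Cd276* had 39 CpG dinucleotides and a GC content of 78.3%, against 15 and 52.7% for *Cd274* and 3 and 46.0% for *Pdcd1lg2*. The letters TTCNNNGAA (the gamma-activated site, its own reverse complement) were found in 8.47% and GAAA, any 2 bases and GAAA again (the core of the interferon-stimulated response element, searched on both strands) in 3.49% of all promoters, and in 0 of the 7 members' windows. Matches of the 3 motifs could overlap by their letters but did not in these windows, where only the GC box was found, and a missing match says only that these letters are not in this window.

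Read counts were obtained for each gene, with between 14139268 and 24290794 counts per tumor. The marker genes of the tumors did not all follow the label of a gastric cancer line. *Krt8* and *Krt19*, keratins of simple epithelium, were abundant in the vehicle group, with means of 543 ± 231 and 184 ± 167 CPM (SD, n = 8; CPM, read counts scaled to the same total in each tumor), while *Epcam* and *Krt18* were at most 2.40 and 1.83 CPM in 15 of the 16 tumors. In IL-33 replicate 7 they were at 98.8 and 159 CPM, and this tumor held 8 of 8 uterus and oviduct genes at their highest level, with a summed level of 1316 CPM against at most 4.59 CPM elsewhere. IL-33 replicate 7 and vehicle replicate 4, the tumors with the highest and the lowest scaling factor, were also the 2 lowest tumors for 4 of the 10 members, *Cd274*, *Tigit*, *Ido1* and *Cd276*. Results that rest on these tumors are therefore given with and without them.

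Relative to transcript length, the checkpoint genes spanned a wide range of levels. *Ido1* was the highest, at 29.9 ± 23.8 CPM per kb of exons (SD, n = 16), followed by *Vsir* (17.9 ± 6.84), *Tigit* (16.1 ± 6.22), *Cd276* (13.7 ± 2.63) and *Havcr2* (13.4 ± 9.27). *Cd274* stood at 7.08 ± 5.78, *Lag3* at 2.58 ± 2.20, *Pdcd1* at 2.39 ± 1.67, *Pdcd1lg2* at 0.494 ± 0.824 and *Tox* at 0.133 ± 0.126 CPM per kb. In 7 of the 9 pairs of neighbors in this order the mean log2 difference was smaller than its SD over the tumors. *Vsir* was above *Tigit* in 7 of 16 tumors, *Lag3* above *Pdcd1* in 7, *Pdcd1lg2* above *Tox* in 8 and *Cd276* above *Havcr2* in 10. The exceptions were the steps from *Pdcd1* to *Pdcd1lg2*, present in 16 of 16 tumors with a mean log2 difference of 1.60 ± 0.86 (SD), and from *Cd274* to *Lag3*, present in 14 of 16 with a difference of 1.27 ± 0.92.

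Several receptors stood at higher levels per kb than the CD3 genes of T cells. *Tigit*, known as a receptor of T and NK cells, exceeded each of the CD3 genes *Cd3d*, *Cd3e* and *Cd3g*, which encode the signaling chains of the T cell receptor, in 16 of 16 tumors per kb of exons. Its ratio to the highest CD3 gene of the same tumor had a median of 22.1 and ranged from 3.61 to 53.6. *Havcr2* also lay above all CD3 genes in 16 of 16 tumors, at a median ratio of 12.9. *Pdcd1* and *Lag3* lay nearer to the CD3 genes, with median ratios of 2.03 and 1.98, and *Tox* lay below the highest CD3 gene in every tumor. Other T cell genes were nearer, as *Trbc2*, a constant region of the T cell receptor (mean 7.81 CPM per kb), was below *Tigit* in 12 of 16 tumors and below *Havcr2* in 10. The means of *Trbc2* and of *Trac* (3.24) were above those of *Pdcd1* and *Lag3*. The exon length used for *Tigit* was 919 bases, against 1815 to 4080 for the CD3 genes, and the share of reads near transcript ends was not tested.

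**Figure D1:**
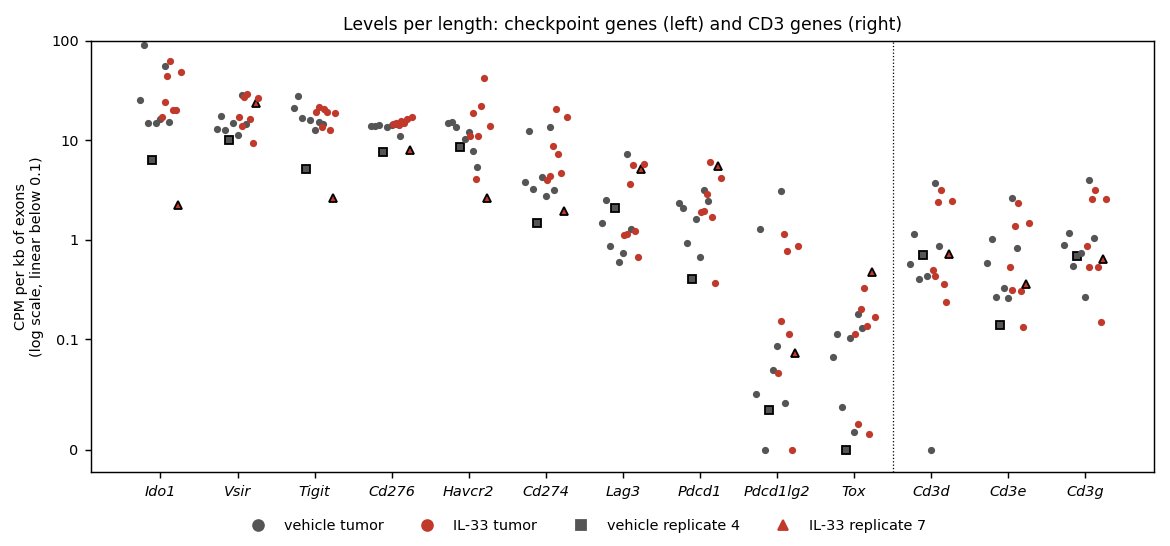
Levels of the 10 checkpoint genes and of the 3 CD3 genes in CPM per kb of exons (log scale, linear below 0.1), 1 point per tumor, gray for vehicle and red for IL-33, with vehicle replicate 4 as squares and IL-33 replicate 7 as triangles. Genes are ordered by their mean, from *Ido1* at 29.9 to *Tox* at 0.133; *Tigit* lies above all CD3 genes in 16 of 16 tumors, and the square and triangle lie lowest for *Tigit*, *Ido1*, *Cd274* and *Cd276*.

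To ask whether IL-33 changed the checkpoint genes, the groups were compared with edgeR's quasi-likelihood test, adjusted by Benjamini-Hochberg over the 16817 genes tested. Of the 10 members 0 passed at an adjusted p under 0.05 and 0 at an unadjusted p under 0.05. The groups overlapped for 10 of 10 members, but the share of all genes with overlapping groups was not computed. Of all genes tested, 0% passed the adjusted and 11.2% the unadjusted threshold. The median log2 change was 0.35 over the members and 0.06 over all genes, with values above 0 for 7 members. The exact permutation test (two-sided, on log2(CPM + 0.5), all 12870 assignments) gave the members unadjusted p-values from 0.149 to 0.965.

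Among the receptors, *Pdcd1* ranged from 0.778 to 6.12 CPM (median 3.58) among vehicle tumors and from 0.703 to 11.6 CPM (median 4.66) among IL-33 tumors. Its 3 highest tumors, IL-33 replicates 4, 7 and 8, were above every vehicle tumor, and 6 of the 8 IL-33 tumors exceeded the mean of the vehicle group. The group means were 3.30 ± 1.88 and 5.91 ± 3.84 CPM (SD, n = 8), a log2 change of 0.75 (95% interval -0.21 to 1.70, edgeR adjusted p = 0.581). Without vehicle replicate 7 the *Pdcd1* change was 0.92. Without IL-33 replicate 6 its unadjusted p was 0.0326 in edgeR. *Lag3* ranged from 1.27 to 15.3 CPM (median 2.89) among vehicle tumors and from 1.41 to 12.2 CPM (median 5.11) among IL-33 tumors. Of all tumors the top *Lag3* value belonged to vehicle replicate 7, and the log2 change was 0.38 (-0.80 to 1.55, adjusted p = 0.871). Without IL-33 replicate 7 the *Lag3* change was 0.30, and the median of the IL-33 tumors was 2.58 CPM, below that of the vehicle tumors.

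*Havcr2* ranged from 14.6 to 41.8 CPM (median 30.4) under vehicle and from 7.12 to 115 CPM (median 34.2) under IL-33. The IL-33 treatment group held both extremes, with IL-33 replicate 6 at 115 CPM and IL-33 replicate 7 at 7.12 CPM. The log2 change was 0.51 (-0.45 to 1.48, adjusted p = 0.739) and fell to 0.05 without IL-33 replicate 6. *Tigit* was near equal in its means, 14.9 ± 6.05 CPM in the vehicle group and 14.7 ± 5.77 CPM in the IL-33 treatment group (SD, n = 8). Apart from vehicle replicate 4 at 4.74 CPM and IL-33 replicate 7 at 2.39 CPM, it lay between 11.7 and 25.9 CPM in every tumor. Its log2 difference was -0.03, with an interval from -0.73 to 0.67.

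Of the ligands, *Cd274* ranged from 5.30 to 49.4 CPM (median 12.8) among vehicle tumors and from 7.07 to 74.6 CPM (median 21.5) among IL-33 tumors. High values occurred in both groups, in vehicle replicates 2 and 7 (44.6 and 49.4 CPM) and in IL-33 replicates 4 and 8 (74.6 and 61.5 CPM). The log2 change was 0.58 (-0.44 to 1.60, adjusted p = 0.712) and 0.75 without IL-33 replicate 7. In the annotation exonic bases of *Cd274* (511), *Cd276* (416) and *Tox* (260) are shared with genes on the opposite strand, and the use of strand in counting is not given, so their counts may hold reads of those genes. *Pdcd1lg2* was close to its detection limit, with 281 reads over the 16 tumors and medians of 0.12 and 0.261 CPM. It had no read in vehicle replicate 3 and IL-33 replicate 6, where 3 reads would be 0.148 and 0.162 CPM, and 107 of its reads came from vehicle replicate 7. The log2 difference of -0.56 had an interval from -2.95 to 1.82, and without vehicle replicate 7 it was 0.79.

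*Cd276* was the most even member. It lay between 40.3 and 52.8 CPM in 7 vehicle tumors and between 51.6 and 62.2 CPM in 7 IL-33 tumors, while vehicle replicate 4 and IL-33 replicate 7 were at 28.1 and 28.9 CPM. Of the 8 IL-33 tumors, 6 were above every vehicle tumor. Over all tumors the log2 change was 0.11 (-0.22 to 0.44, adjusted p = 0.867). Without IL-33 replicate 7 it was 0.22 (0.02 to 0.43), with an unadjusted p of 0.0336 and an adjusted p of 0.964 in edgeR. The exact permutation test, on CPM scaled to total counts, then gave p = 0.00575 (two-sided, unadjusted). *Cd276* was then 1 of 10 members under an unadjusted p of 0.05, beside 4.12% of 15803 genes tested. With both IL-33 replicate 7 and vehicle replicate 4 left out it was again the 1 member under that threshold, with a log2 change of 0.21, beside 4.19% of 15744 genes and with an adjusted p of 1.00 in edgeR.

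*Vsir*, the most abundant member in CPM, ranged from 50.9 to 142 CPM (median 69.1) among vehicle tumors and from 46.8 to 146 CPM (median 102) among IL-33 tumors. It was at 134 to 146 CPM in IL-33 replicates 3, 4 and 8 and at 142 CPM in vehicle replicate 7, and the log2 change was 0.32 (-0.12 to 0.76, adjusted p = 0.618). Without vehicle replicate 7 the unadjusted p of *Vsir* was 0.0214 in edgeR, and the change was 0.48. *Ido1* ranged from 11.5 to 165 CPM (median 28.8) and from 4.10 to 113 CPM (median 40.4). Its highest tumor was vehicle replicate 2 and its lowest IL-33 replicate 7, and the log2 difference was -0.01 (-1.15 to 1.13). *Tox* was read 303 times in all, with 0 reads in vehicle replicate 4 (3 reads would be 0.212 CPM there) and the highest level, 3.65 CPM, in IL-33 replicate 7. The log2 change was 1.04 (-0.46 to 2.53, adjusted p = 0.633) and 0.74 without that tumor.

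**Figure D2:**
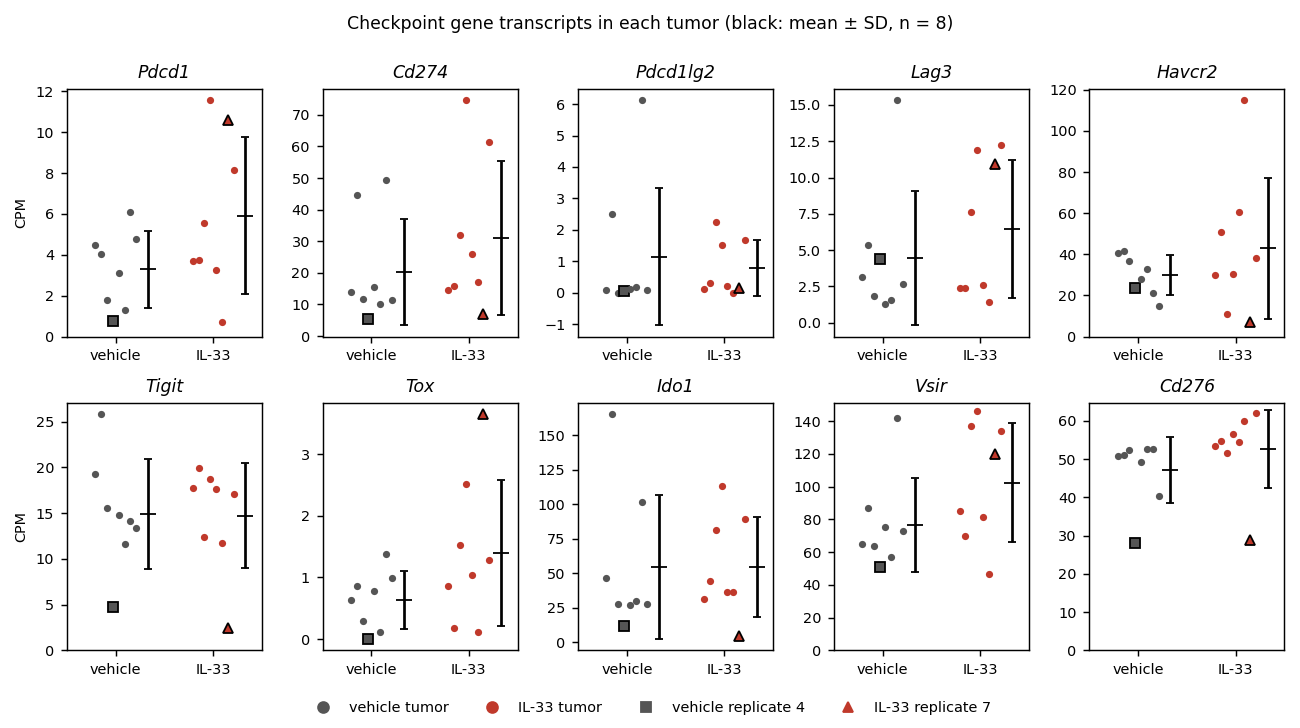
CPM of the 10 checkpoint genes in each tumor, 8 vehicle tumors (gray) and 8 IL-33 tumors (red), with the mean ± SD in black. Each panel starts at or below 0. The groups overlap for 10 of 10 genes (the share over all genes was not computed). Vehicle replicate 4 (square) and IL-33 replicate 7 (triangle) are the 2 lowest points for *Cd274*, *Tigit*, *Ido1* and *Cd276*.

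**Figure D3:**
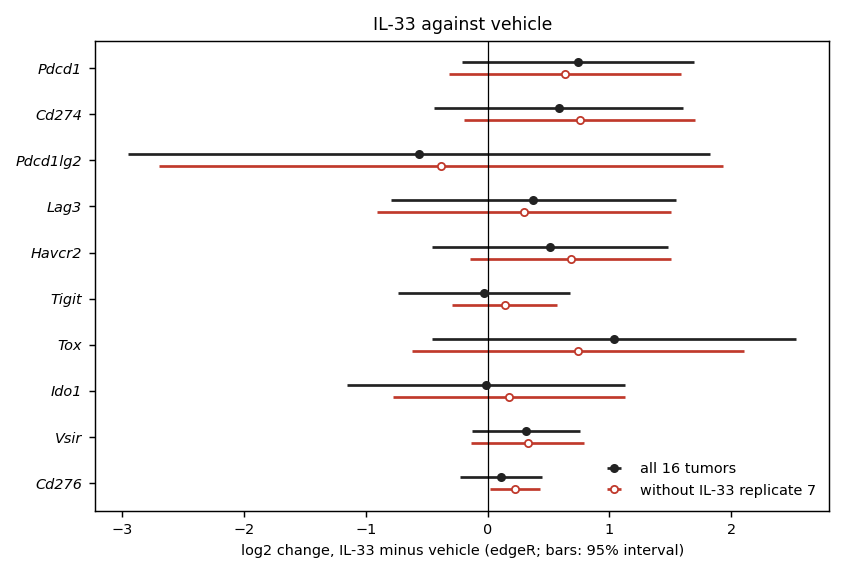
Log2 change from vehicle to IL-33 with 95% intervals from edgeR, over all 16 tumors (black) and without IL-33 replicate 7 (red, open). Every interval over 16 tumors includes 0, and without IL-33 replicate 7 that of *Cd276* runs from 0.02 to 0.43.

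The spread within the groups was then read against T cell content. The T cell score averages, in each tumor, the log2 CPM of 10 T cell genes, among them *Cd3e*, *Lck* and *Trac*, and holds none of the members. It was highest in vehicle replicate 7 (3.16), IL-33 replicates 4 (2.95), 3 (2.64) and 8 (2.58), then 1.76 in vehicle replicate 2 and lower in the rest, down to -0.41 in IL-33 replicate 6. The slope of each gene on the score was tested with the group as a covariate. Of the members 5 rose with the score at an adjusted p under 0.05 and 0 fell, beside 4.61% of all genes that rose and 2.79% that fell. The median slope was 0.65 over the members and -0.05 over all genes.

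*Pdcd1lg2* had the steepest slope, 2.03 on the log2 scale per unit of score (95% interval 1.26 to 2.80, edgeR adjusted p = 0.00208), followed by *Lag3* at 0.92 (0.55 to 1.29, adjusted p = 0.00304). *Pdcd1* rose by 0.71 (0.30 to 1.11, adjusted p = 0.0318), *Cd274* by 0.69 (0.36 to 1.02, adjusted p = 0.0112) and *Vsir* by 0.40 (0.30 to 0.49, adjusted p = 6.07e-05). *Ido1* had a slope of 0.62 (0.16 to 1.07, adjusted p = 0.105) and *Tox* one of 0.75 (-0.03 to 1.53, adjusted p = 0.265). *Havcr2* had a negative slope, -0.49 (-0.90 to -0.09, adjusted p = 0.144). *Tigit* and *Cd276* had slopes of 0.08 (-0.30 to 0.46) and -0.03 (-0.20 to 0.13).

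*Vsir*, *Lag3* and *Pdcd1lg2* passed with each of the 16 tumors left out in turn, *Cd274* in 15 of 16 and *Pdcd1* in 7 of 16. Without IL-33 replicate 7, which had a score of 0.98 but *Pdcd1*, *Lag3* and *Tox* levels among the 4 highest of the 16 tumors, 7 members rose and 1 fell, beside 9.86% and 7.81% of all genes. *Tox* then rose by 0.93 (adjusted p = 0.0251) and *Ido1* by 0.59 (adjusted p = 0.0208), and *Havcr2* fell by 0.52 per unit of score (adjusted p = 0.0190). Without vehicle replicate 7, 3 members rose (2.99% of all genes), and without the 2 tumors farthest from the median score, vehicle replicate 7 and IL-33 replicate 4, *Vsir* alone of the 10 did (0.38, edgeR adjusted p = 0.00884), as did 1.73% of 16725 genes.

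The 4 tumors with the highest scores stood apart from the other 12, and the relation was computed again without them, a choice made after the scores had been seen. Of the members 0 then passed the adjusted threshold, as did 0 of 16635 genes. At an unadjusted p under 0.05, 4 members rose and 0 fell, beside 3.58% and 0.992% of all genes. The slopes were 1.39 for *Pdcd1* (unadjusted p = 0.00887), 0.36 for *Vsir* (unadjusted p = 0.00944), 2.27 for *Pdcd1lg2* (unadjusted p = 0.0274) and 1.04 for *Lag3* (unadjusted p = 0.0455), all from edgeR and with an adjusted p of 0.992. For *Cd274* and *Ido1* they were 0.43 and 0.53, with the same adjusted p.

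**Figure D4:**
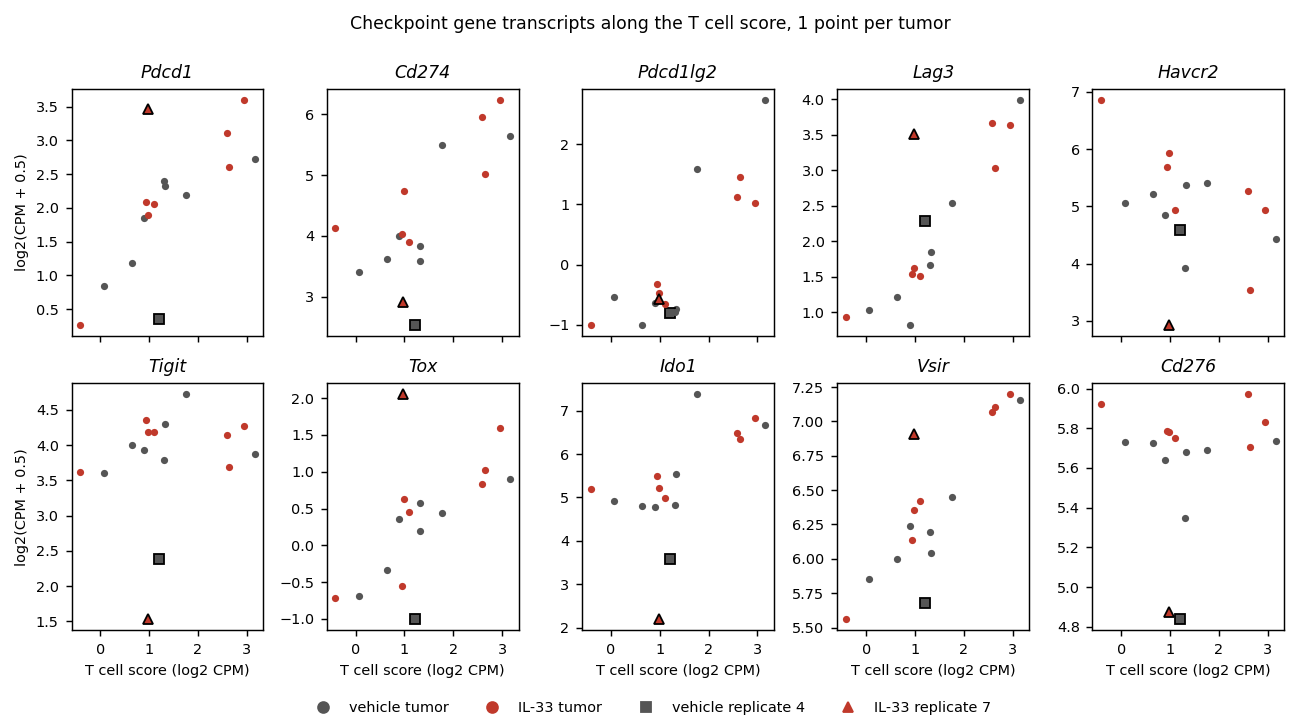
Log2(CPM + 0.5) of each checkpoint gene against the T cell score (mean log2 CPM of 10 T cell genes), 1 point per tumor, gray for vehicle and red for IL-33. *Vsir*, *Lag3* and *Pdcd1* climb along the score apart from vehicle replicate 4 (square) and IL-33 replicate 7 (triangle), and *Tigit* and *Cd276*, with slopes of 0.08 and -0.03, do not. The vertical axis is scaled to total counts and the score by TMM. The square and the triangle, with scaling factors of 0.640 and 1.24, are therefore shifted against the score.

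The same slopes were computed on a macrophage score (10 genes, among them *Adgre1*, *Csf1r* and *C1qa*) and on an interferon-gamma response score (10 genes, among them *Irf1* and *Cxcl9*). Along the interferon-gamma response score 5 members rose, *Pdcd1lg2* (1.94), *Cd274* (0.73), *Ido1* (0.70), *Lag3* (0.68) and *Vsir* (0.34), and 0 fell, beside 4.85% and 3.22% of all genes. *Cd274*, *Pdcd1lg2* and *Vsir* passed with each tumor left out, *Ido1* in 13 of 16 fits and *Lag3* in 3 of 16. Without the 5 tumors that stood apart at the upper end of this score, 0 members passed the adjusted threshold, as did 0 of 16560 genes. At an unadjusted p under 0.05, 2 members rose, *Pdcd1* (2.17, unadjusted p = 0.00987) and *Tox* (3.50, unadjusted p = 0.0276), and 0 fell, beside 3.16% and 2.42% of all genes, while *Ido1* had a slope of -0.08 (unadjusted p = 0.907). Along the macrophage score 2 members rose, *Lag3* (1.92, adjusted p = 0.0310) and *Vsir* (0.89, adjusted p = 0.00323), and 1 fell, *Havcr2* (-1.62, adjusted p = 0.0153), beside 3.22% and 2.43% of all genes. *Havcr2* passed in 14 of 16 fits with a tumor left out, but not without IL-33 replicate 3 or IL-33 replicate 6. Without the 2 tumors farthest from the median macrophage score, vehicle replicate 7 and IL-33 replicate 6, 0 members passed, as did 0 of 16729 genes. The scores rise together, with a Spearman rho of 0.87 between the T cell and the interferon-gamma response score over 16 tumors after the group means were subtracted, so slopes on them are not separate results.

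**Figure D5:**
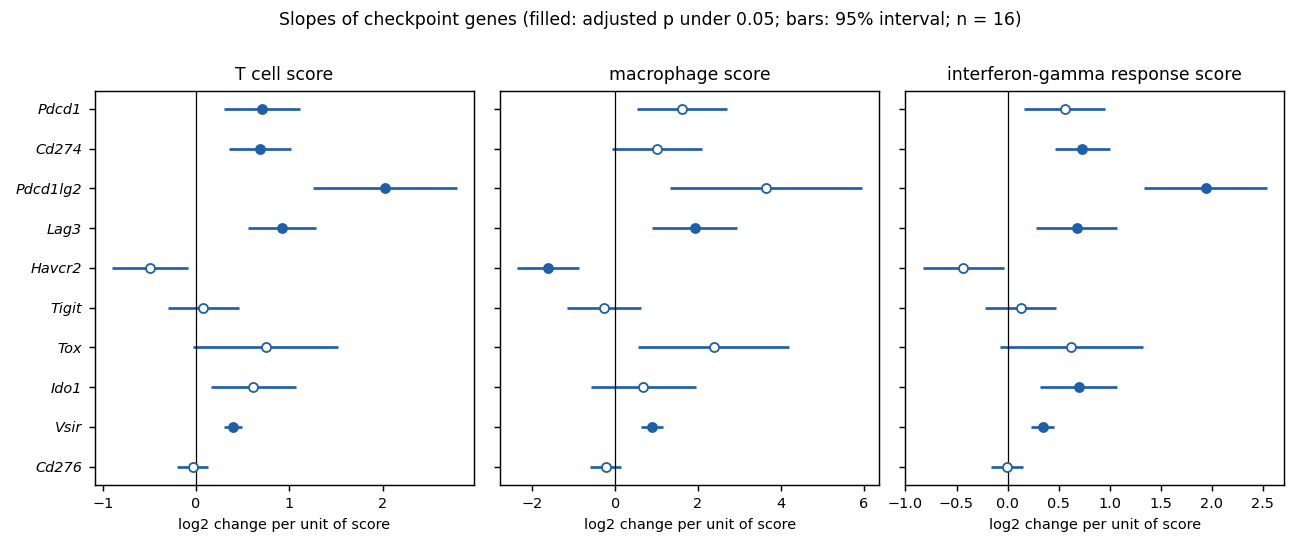
Slopes of the 10 checkpoint genes on the T cell, macrophage and interferon-gamma response scores, as log2 change per unit of score with 95% intervals (edgeR, n = 16 tumors), filled where the adjusted p is under 0.05. *Lag3* and *Vsir* are filled on all 3 scores, *Havcr2* lies below 0 on all 3, and *Tigit* and *Cd276* are open on all 3. The horizontal scales differ between panels.

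At equal T cell score the groups again differed for 0 members at an adjusted p under 0.05. At an unadjusted p under 0.05 it was 1 of 10, beside 10.9% of all genes. This was *Vsir*, higher by 0.23 in the IL-33 treatment group (0.04 to 0.42, edgeR unadjusted p = 0.0215, adjusted p = 0.448), with an unadjusted p between 0.0101 and 0.0436 with each tumor left out. *Pdcd1* was at 0.57 (-0.16 to 1.29) and *Cd274* at 0.48 (-0.23 to 1.19).

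For each member the genes of at least 1 CPM with the most similar pattern were sought over the 16 tumors, by Spearman's rho after the group means were subtracted, as a description over tumors that share library depth and scaling. *Vsir* was closest to *Cyth4* (0.98), *Gimap3* (0.98) and *Ubd* (0.97), and *Lag3* to *Sept1* (0.94), *Gngt2* (0.94) and *Batf* (0.93). *Cd274* was closest to *Tnfrsf14* (0.93), *Ifi209* (0.92) and *Fyb* (0.92), and *Pdcd1lg2* to *Slc15a3* (0.89), *Ctla4* (0.88) and *Irf8* (0.86). *Pdcd1* was closest to *Itga9* (0.96), *Cx3cr1* (0.95) and *Man2b1* (0.94), and *Tox* to *Icosl*, *Man2b1* (both 0.95) and *Sept6* (0.94). The remaining members had the following nearest genes. *Tigit* was closest to *Slc25a40* (0.94), *Pole* (0.89), the catalytic subunit of DNA polymerase epsilon, and *Iqgap3* (0.87). *Havcr2* was closest to *Cdk18* (0.95), *Ero1l* (0.92), an oxidoreductase of the endoplasmic reticulum, and *Klf6* (0.91). *Cd276* was closest to *Runx2* (0.90), *Btg3* (0.82) and *Tfap2a* (0.82), and *Ido1* to *Hspd1* (0.93), *Nup54* (0.92) and *Actr3* (0.91).

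Of 12 other inhibitory receptors 0 were under an unadjusted p of 0.05 between the groups, beside 11.2% of all genes, with a median log2 change of 0.30. Along the T cell score 8 of 12 rose, beside 4.61% of all genes. The smallest p was that of *Ctla4*, an inhibitory receptor of T cells, with 1.15 ± 1.24 CPM under vehicle and 2.10 ± 1.56 CPM under IL-33 (SD, n = 8), a log2 change of 0.84 (edgeR unadjusted p = 0.192). Of 8 costimulatory receptors 6 rose along the T cell score. The exceptions were *Cd40lg* and *Tnfrsf9* (4-1BB). *Cd40lg*, with 13 reads in all, was found in 1 of 8 vehicle tumors and 7 of 8 IL-33 tumors, with means of 0.00883 and 0.0814 CPM. Its log2 change was 2.53 (unadjusted p = 0.00931 in edgeR). Without IL-33 replicate 7 it had too few reads to be tested, so it entered the test only through that tumor. *Tnfrsf9* was at 364 ± 151 CPM under vehicle and 314 ± 150 CPM under IL-33 (SD, n = 8), with a slope of -0.25 (edgeR adjusted p = 0.588).

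Of 15 tested genes in a list of checkpoint partners and related genes, 1 was higher and 1 lower at an unadjusted p under 0.05. Over all 16817 genes these were 1680 and 196. *Rgmb*, which encodes a binding partner of PD-L2, went from 73.4 ± 19.5 to 58.0 ± 13.4 CPM (SD, n = 8), a log2 change of -0.41 (unadjusted p = 0.0174 in edgeR) and of -0.38 without IL-33 replicate 7. *Vtcn1* (B7-H4) was read almost only in IL-33 replicate 7, at 23.4 CPM. Without that tumor 0 genes of this list were higher and 2 lower, beside 289 and 362 of 15803 genes. The 2 were *Rgmb* and *Fgl1*, a ligand of LAG-3 with 47 reads in all. *Fgl1* had a log2 change of -4.20 (unadjusted p = 0.00229 in edgeR). *Selplg* and *Lgals9*, whose products bind VISTA and TIM-3, were among the 3 genes of this list that rose along the T cell score. Of 7 costimulatory ligands 1, *Icosl*, was higher (log2 change 1.06, unadjusted p = 0.0409 in edgeR), and without IL-33 replicate 7 its change was 0.42 (unadjusted p = 0.237).

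Of 12 transcription factors of T cell exhaustion 2 were higher at an unadjusted p under 0.05, beside 1680 of 16817 genes. *Irf4*, a factor of activated lymphocytes, was at 1.76 ± 1.50 CPM under vehicle and 6.26 ± 6.13 CPM under IL-33 (SD, n = 8), a log2 change of 1.75 (edgeR unadjusted p = 0.0110, adjusted p = 0.418) and of 1.80 without IL-33 replicate 7. *Tox2* had a change of 2.90 (edgeR unadjusted p = 0.0257), and of 1.16 without IL-33 replicate 7 (edgeR unadjusted p = 0.229). Of 12 enzymes and sensors of the tryptophan pathway 0 passed, with the smallest p for *Ahr*, the receptor of kynurenine (log2 change -0.37, unadjusted p = 0.0665). Of 6 genes of interferon-gamma and its signaling 0 passed. The smallest p was that of *Jak2*, a kinase of the interferon-gamma receptor (0.31, unadjusted p = 0.0571), and *Ifng* itself had means of 0.669 ± 1.11 and 0.667 ± 0.754 CPM (SD, n = 8). It rose along the T cell score with a slope of 1.73.

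Marker levels of the cells that could carry these transcripts overlapped between the groups as well. The summed CPM of the 10 T cell score genes ranged from 13.8 to 102 (median 24.5) in the vehicle group and from 6.16 to 90.6 (median 25.4) in the IL-33 treatment group, and that of the 10 macrophage genes from 1084 to 3077 (median 1419) and from 643 to 2891 (median 1517). Between the groups 0 of 10 T cell genes, 0 of 10 macrophage genes, 0 of 10 interferon-gamma response genes, 0 of 3 CD8 T cell, 0 of 4 CD4 T cell, 0 of 7 dendritic cell and 0 of 6 B cell markers were under an unadjusted p of 0.05. Of 4 NK cell markers 1 was higher, beside 1680 of 16817 genes. Without IL-33 replicate 7 it was 2, beside 289 of 15803 genes. *Cd8a*, which marks CD8 T cells, was at 5.41 ± 5.49 and 6.31 ± 6.42 CPM (SD, n = 8), and *Foxp3*-containing CD4 T cell markers summed to a median of 2.99 and 5.12 CPM. All 8 uterus and oviduct, all 7 ovary and 3 of 5 epithelial genes were higher under IL-33 at an unadjusted p under 0.05. Without IL-33 replicate 7, 0 of those still tested were higher. The epithelial gene *Krt18* was then lower (log2 change -2.27, edgeR unadjusted p = 0.00531). The part of these genes in the members' values in IL-33 replicate 7 was not tested.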

How the data were processed

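Polyadenylated RNA of 8 vehicle and 8 IL-33 tumors was sequenced. The authors deposited, for each tumor, raw read counts per gene without normalization. HISAT2, featureCounts and mm10 are named in the submitters' processing notes, while their versions, the annotation and the use of strand are not given in the sources used here. Without known strand, reads of overlapping antisense genes could be counted together. Identifiers were paired with symbols from GENCODE M21 (GRCm38, the same build), which named 22255 of 22298 genes.

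Genes read 10 or more times in the 16 tumors together entered the test with edgeR 4.0.16 (R 4.3.3; TMM scaling, quasi-likelihood F test, Benjamini-Hochberg over all genes tested). CPM was computed on total counts, CPM per kb on the union of annotated exons, and intervals are at 95%. Scores are mean log2 CPM (TMM, prior count 2) of the listed genes, and their slopes were fitted with the group. Floors of 3 counts cover counting error only. No pair of tumors was a repeat deposit of 1 library. Alternatives were DESeq2 1.42.0, limma 3.58.1 voom with sample quality weights, upper-quartile scaling, other filters, the replicate number as a block, other pseudocounts and each tumor left out. The fits were tested on simulated counts.

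Named are all members, list genes with an unadjusted p under 0.05 or the smallest p of their list, defining marker genes, and the 3 genes most similar to each member. *Tnfrsf9*, *Selplg*, *Lgals9*, *Fgl1* and *Ifng* were named after their values were seen. The members, lists and rules were chosen with earlier results of these data known.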

Additional observations from a re-analysis of the deposited data

Results flagged for a closer look

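Among the 20 sets of 8 tumors tested (10 members in each group), 5 had a highest or lowest value set apart from the others by more than Dixon's 95% limit. Its rate of about 1 in 20 holds for independent, normally distributed values. The sets here are CPM of genes that vary together, so that rate does not apply and the count is a description. Vehicle replicate 7 was the highest of its group for *Pdcd1lg2* at 6.12 CPM (next 2.51), for *Lag3* at 15.3 CPM (next 5.33) and for *Vsir* at 142 CPM (next 86.9). It also had the highest T cell score of the 16 tumors, 3.16. IL-33 replicate 7 was the lowest of its group for *Tigit* at 2.39 CPM (next 11.7) and for *Cd276* at 28.9 CPM (next 51.6). It is the tumor with uterus, oviduct and ovary transcripts. The part of these tumors in the members' values was not tested beyond leaving each out.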

How the results depend on the processing

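Depth limits the members *Pdcd1lg2* and *Tox*, read 281 and 303 times in all. No alternative gave a member an adjusted p under 0.05 between the groups. At an unadjusted p, 2 members (*Cd274* and *Vsir*) passed with voom, beside 966 of 16817 genes. With both IL-33 replicate 7 and vehicle replicate 4 left out it was 1, beside 659 of 15744 genes. Without single tumors it was 0 to 1, beside 651 to 2163 genes. Slopes depended more on the setting. Along the T cell score 8 members passed with voom, where 5159 of 16817 genes passed against 1245 in edgeR. It was 1 without the 2 tumors farthest from the median (372 genes), 0 without the 4 highest (0 genes) and 4 with the replicate block (529 genes). Without single tumors it was 3 (without vehicle replicate 7, 738 genes) to 8 (without IL-33 replicate 7, 2793 genes). Along the macrophage score these were 7 with voom (5544 genes), 0 without the 2 farthest (0 genes) and 0 with the replicate block (0 genes). Without single tumors they were 1 (without IL-33 replicate 3 or 6, 275 and 154 genes) to 6 (without vehicle replicate 4, 2445 genes), and 5 without IL-33 replicate 7 (2178 genes). Along the interferon-gamma response score they were 8 with voom (5326 genes), 3 without the 2 farthest (574 genes) and 3 with the replicate block (483 genes). Without its 5 highest tumors 0 passed (0 genes). Without single tumors they were 3 (without vehicle replicate 2 or 7 or IL-33 replicate 4, 790 to 1072 genes) to 8 (without IL-33 replicate 7, 2966 genes). At equal T cell score 1 member passed at an unadjusted p (1838 genes), with 2 at equal interferon-gamma response score (1539 genes) and 0 with the replicate block (526 genes). Without single tumors it was 1 to 3, with 3 if IL-33 replicate 7 was left out (901 genes). It was 2 if either vehicle replicate 2 (1783 genes) or IL-33 replicate 6 (1891 genes) was left out. The replicate numbers do not pair the tumors, with correlations of same-numbered tumors between -0.32 and 0.35. The cause of these changes was not tested.

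Differences near 0 changed sign between settings. *Pdcd1lg2* between the groups was at 1.12 with voom, 0.54 with the replicate block and -1.02 to 0.79 without single tumors. *Tigit* was at 0.13 with voom, 0.045 with both tumors left out and -0.12 to 0.14 without single tumors. *Ido1* was at 0.40 with voom, 0.17 with the replicate block, 0.046 with both left out and -0.22 to 0.47 without single tumors. At equal T cell score *Pdcd1lg2* was at 0.15 with the replicate block, 0.10 at equal interferon-gamma response score and -0.78 to 0.042 without single tumors, *Tigit* at -0.14 to 0.13 and *Ido1* at -0.40 to 0.34 without single tumors, and *Ido1* at 0.091 at equal interferon-gamma response score. With the replicate block the T cell slopes of *Havcr2* and *Cd276* were 0.014 and 0.22, the macrophage slopes of *Tigit* and *Cd276* 1.00 and 0.32, and the interferon-gamma response slope of *Cd276* 0.15. *Cd276* slopes without single tumors ran from -0.061 to 0.034 on the T cell score and from -0.040 to 0.053 on the interferon-gamma response score. Without the 5 highest tumors the latter slopes of *Lag3* and *Ido1* were -0.25 and -0.075. Differences of mean log2(CPM + 0.5) were -0.057 for *Ido1* on TMM-scaled totals, and without 1 of the 2 unusual tumors -0.22 to 0.48 for *Ido1*, -0.29 to 0.24 for *Tigit* and -0.015 to 0.19 for *Pdcd1lg2*.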
